A study of Mus musculus with 8 samples.

Results

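The genes described here are 39 cell cycle and replication genes of the mouse, chosen as a named list of symbols among the 20377 gene symbols in the deposited tables. All 39 were found under their own symbols, and each is given by its most-read transcript. They were measured by RNA sequencing in ST14high and ST14low cells, 4 libraries each, from freshly sorted duct cells of wild type C57BL/6 mouse liver. Both populations came from a liver cell fraction that the labels call NPCs, from which MIC1-1C3+ CD26- cells other than blood cells were taken by flow cytometry and parted by ST14 (matriptase, a membrane serine protease of epithelia). No treatment, age or sex is named in the labels used here, and they do not say whether the libraries came from separate animals, so the p-values here speak of the spread among these libraries alone, which may be technical. The ST14high libraries held 17418202 to 42769988 reads and the ST14low libraries 6398307 to 31011678 reads after 1 transcript was kept per gene.

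A dividing cell first makes D-type cyclins, whose kinases release the E2F transcription factors from the retinoblastoma protein. E2F factors then switch on the genes that license replication origins, build nucleotides and copy DNA. Later in the cycle a separate wave of genes, many under FOXM1 and B-MYB, supplies the cyclins, kinases, motors and degradation factors of mitosis. Adult bile duct cells divide rarely unless the liver is injured, and both waves are usually low in resting epithelium.

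Duct markers were high in both populations: Epcam (an epithelial adhesion protein) averaged 571 ± 41.9 CPM in ST14high, against 582 ± 54.8 CPM in ST14low (SD, n = 4 each). Sox9 (a duct transcription factor) averaged 461 ± 38.2 CPM in ST14high, against 477 ± 52.7 CPM in ST14low. CPM are a gene's reads relative to the size of its library, after edgeR's TMM scaling of that size. St14 itself averaged 305 ± 32.5 CPM in ST14high, against 329.9 ± 49.0 CPM in ST14low (edgeR adjusted p = 0.809). ST14high replicate 1 stood apart: 10 pancreatic acinar markers summed to 9839 CPM there, against 1423 CPM in ST14high replicate 2 and at most 112 CPM in the other libraries. Its 10 stellate cell, fibroblast and mesothelium markers summed to 2976 CPM, against 472 to 735 CPM in the other ST14high libraries and 96.7 to 243 CPM in ST14low. Its 8 duct markers summed to 12077 CPM, the lowest of all libraries. They summed to 17777 to 22614 CPM in the other ST14high libraries and 17151 to 23942 CPM in ST14low. The 8 hepatocyte markers summed to 4886 to 12392 CPM in ST14high, against 7663 to 14317 CPM in ST14low.

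None of the 39 genes was called different between ST14high and ST14low against the spread of the libraries. In edgeR's quasi-likelihood test over all 13749 genes tested, in which 0 percent of genes passed an adjusted p of 0.05, 0 members passed, and their adjusted p lay between 0.579 and 0.99. At an unadjusted p under 0.05 there were 0 members in either direction, where 6.89% of all genes tested were higher and 2.68% lower in ST14high. DESeq2's Wald test called 0 members and 1.72% of genes with an adjusted p, and 1 member, Mki67, had an unadjusted p under 0.05 there, as did 10.8% of genes with a DESeq2 p. In 0 members did the 4 libraries of one population all lie above those of the other, where 4.09% of all genes tested did so with ST14high higher and 2.33% with ST14high lower. The fitted log2 fold change of ST14high over ST14low was above 0 in 20 members and below 0 in 19. Its median was 0.016 over the members and 0.0023 over all genes tested. That near-even split depended on single libraries: without ST14high replicate 4 only 9 members lay above 0, and without ST14low replicate 2 it was 30. Without ST14high replicate 1 it was 22. All 39 members passed the low-count filter.

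The precision differed between members. For 13 of the 39 the 95% interval of the fold change lay within 2-fold in both directions, so a larger difference was outside the interval. For the other 26 the interval reached past 2-fold, so a 2-fold difference was not outside it. Mitotic genes made up 19 of these 26.

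**Figure D1:**
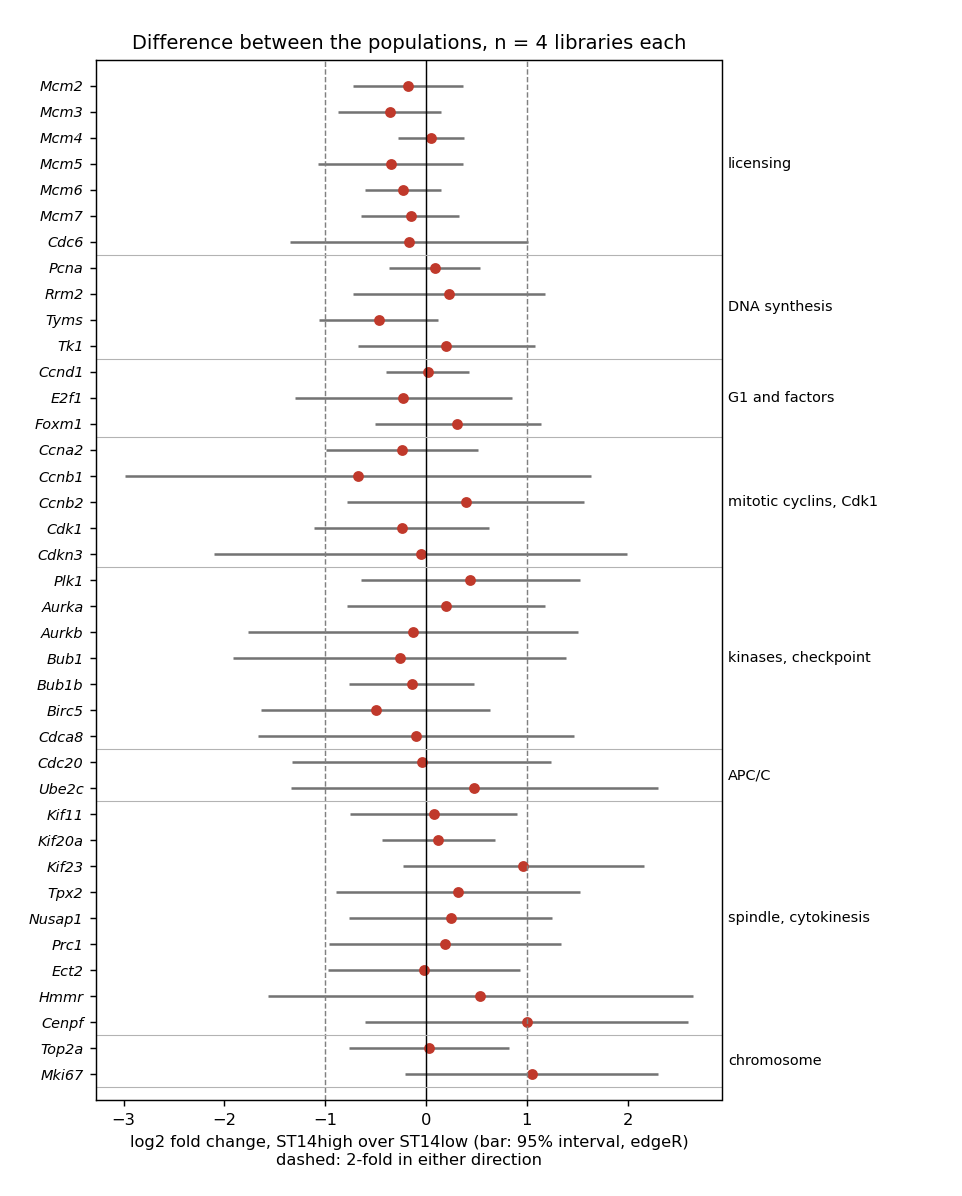
Log2 fold change of ST14high over ST14low for each member (point) with its 95% interval from edgeR (bar), n = 4 libraries each, grouped by role; dashed lines mark 2-fold. Every interval spans 0, and the intervals of most Mcm genes are shorter than those of most mitotic genes.

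Cyclin D1 held most of the reads. Ccnd1 (chromosome 7, 152115835 to 152125830, minus strand, mm9), the D-type cyclin that carries growth signals into G1, was at 847, 943, 924 and 969 CPM in ST14high replicates 1 to 4, against 1126, 1083, 672 and 762 CPM in ST14low replicates 1 to 4. The ST14high values lay inside the ST14low range. The averages were 921 ± 52.6 CPM in ST14high, against 911 ± 228 CPM in ST14low (SD, n = 4 each). The log2 fold change came to 0.016 (SE 0.19, 95% interval -0.4 to 0.43, edgeR adjusted p = 0.984), so a difference of 1.5-fold lay outside the interval. With upper-quartile scaling it was -0.022. Ccnd1 alone held 185177 reads, which was 60.5% to 70.8% of all reads of the 39 genes in a library.

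Levels of different genes were compared on the deposited RPKM values, which are scaled by transcript length. Ccnd1 averaged 254 ± 28.0 RPKM in ST14high, against 254 ± 60.4 RPKM in ST14low, and stood at percentile 98.8 of the mean RPKM of genes tested. Pcna, the sliding clamp of DNA polymerase, followed at 43.3 ± 5.74 RPKM in ST14high, against 41.6 ± 9.94 RPKM in ST14low, and then Mcm6, a subunit of the replicative helicase, at 32.4 ± 4.97 RPKM in ST14high and, in ST14low, 38.5 ± 7.55 RPKM. The ranges of Pcna and Mcm6 over the 8 libraries overlapped. The 6 helicase subunits Mcm2 to Mcm7 averaged 8.79 to 35.4 RPKM over the 8 libraries. The 25 mitotic members lay below all of them, at 0.379 RPKM for Ccnb1 to 5.62 RPKM for Kif20a. The level of Kif20a is uncertain, since its transcript overlaps other genes on the opposite strand. Mki67, which encodes the proliferation antigen Ki-67, averaged 3.17 RPKM and stood at percentile 20.9 of genes tested.

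The transcription factors E2f1 and Foxm1 were low, at means of 2.08 and 1.55 RPKM over the 8 libraries. E2f1, the transcription factor that switches on replication genes, was at 5.62, 4.42, 5.03 and 2.02 CPM in ST14high, against 5.58, 7.79, 1.85 and 4.56 CPM in ST14low. Foxm1, a transcription factor of the mitotic wave, was at 7.26, 8.39, 3.42 and 8.87 CPM in ST14high, against 5.67, 5.53, 3.7 and 7.41 CPM in ST14low. For both genes the populations overlapped, with log2 fold changes of -0.23 (SE 0.48) and 0.31 (SE 0.37). Foxm1 was lowest in ST14high replicate 3, and E2f1 was lowest in ST14low replicate 3.

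**Figure D2:**
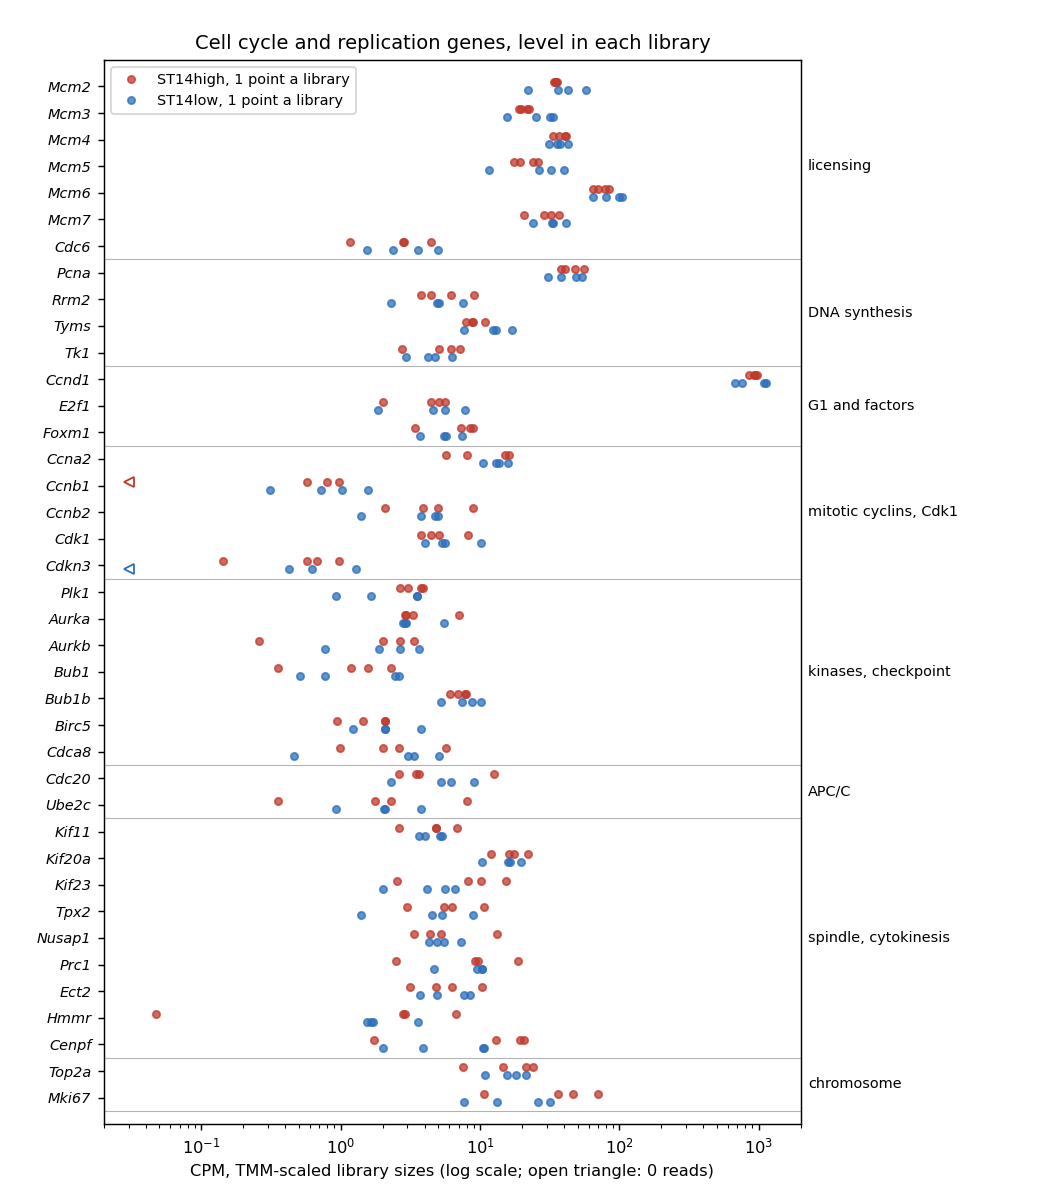
CPM of each member in each of the 8 libraries on a log axis, ST14high in red above ST14low in blue, grouped by role; open triangles mark libraries with 0 reads. Ccnd1 lies at 672 to 1126 CPM, the Mcm genes at 11.6 to 105 CPM, and most mitotic genes under 20 CPM with wide spread.

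The licensing genes encode the replicative helicase and its loader, and the 6 Mcm genes varied by less than 2-fold among the ST14high libraries. Among the ST14low libraries the highest value was 2.59-fold the lowest for Mcm2, 2.11-fold for Mcm3 and 3.44-fold for Mcm5. It was 1.38-fold for Mcm4, 1.62-fold for Mcm6 and 1.72-fold for Mcm7. Mcm2 was at 34.7, 35.2, 34.1 and 35.7 CPM in ST14high, against 42.4, 57.1, 22.1 and 36.0 CPM in ST14low. The ST14high libraries were nearly equal and lay within the wider ST14low range. Mcm6 was at 64.2, 69.8, 84.7 and 79.0 CPM in ST14high, against 98.7, 105, 65.0 and 79.9 CPM in ST14low. Mcm3 was at 21.8, 19.1, 22.4 and 19.7 CPM in ST14high, against 31.9, 33.2, 15.7 and 25.3 CPM in ST14low. For both, 3 ST14low libraries lay above the mean of ST14high and ST14low replicate 3 lay below it. Mcm4, Mcm5 and Mcm7 had log2 fold changes of 0.048, -0.35 and -0.15. Cdc6, the factor that helps load the helicase on origins, was rarer, at 1.16 to 4.42 CPM in ST14high, against 1.54 to 4.97 CPM in ST14low. Of the 7 licensing genes 6 were lower in ST14high by the fitted value (median log2 fold change -0.18), and this median was -0.041 without ST14low replicate 2 and -0.37 without ST14low replicate 3. None passed the test (smallest edgeR adjusted p = 0.626).

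The clamp and the genes of nucleotide supply were also not called. Pcna was at 55.9, 40.9, 38.3 and 48.0 CPM in ST14high, against 38.1, 54.0, 30.7 and 48.9 CPM in ST14low. Tyms (thymidylate synthase, which makes the thymine nucleotide) was at 8.78, 8.87, 10.8 and 7.95 CPM in ST14high, against 12.4, 16.9, 7.72 and 13.1 CPM in ST14low. In Tyms 3 ST14low libraries lay above every ST14high library and ST14low replicate 3 lay below them all, with a log2 fold change of -0.47 (SE 0.26, edgeR adjusted p = 0.599). Rrm2, the regulated subunit of ribonucleotide reductase, was at 3.78 to 9.08 CPM in ST14high, against 2.31 to 7.48 CPM in ST14low. Tk1 (thymidine kinase, which salvages thymidine) was at 2.76 to 7.12 CPM in ST14high, against 2.93 to 6.3 CPM in ST14low, and 97 of its bases overlap Afmid on the opposite strand. Summed over the 11 licensing and synthesis genes, the level was 275, 281, 294 and 302 CPM in ST14high, against 345, 402, 214 and 312 CPM in ST14low. ST14low replicate 3, the shallowest library, held the lowest value of its population in 11 of these 11 genes. Over all genes tested that library was lowest of its population in 30.6%.

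Most mitotic genes varied by more than 2-fold between libraries of the same population. Summed over the 25 mitotic members, the level was 171, 214, 78.7 and 289 CPM in ST14high, against 126, 211, 91.7 and 174 CPM in ST14low. The highest and lowest of the 8 libraries were both ST14high, and the ST14low libraries lay between them. The highest sum was 3.67-fold the lowest in ST14high and 2.3-fold in ST14low. For the 11 licensing and synthesis genes it was 1.1-fold in ST14high and 1.87-fold in ST14low. ST14high replicate 3 was the lowest of its population in 23 of the 25 genes and ST14high replicate 4 the highest in 21. Over all genes tested the same libraries held those places in 24.7% and 24.9%. In ST14low, replicate 2 was highest in 20 of the 25 and replicate 3 lowest in 20, against 34.5% and 30.6% of all genes tested. The sum of the mitotic genes divided by that of the 11 licensing and synthesis genes was 0.622, 0.759, 0.268 and 0.955 in ST14high, against 0.365, 0.525, 0.427 and 0.557 in ST14low, lowest and highest in ST14high replicates 3 and 4.

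**Figure D3:**
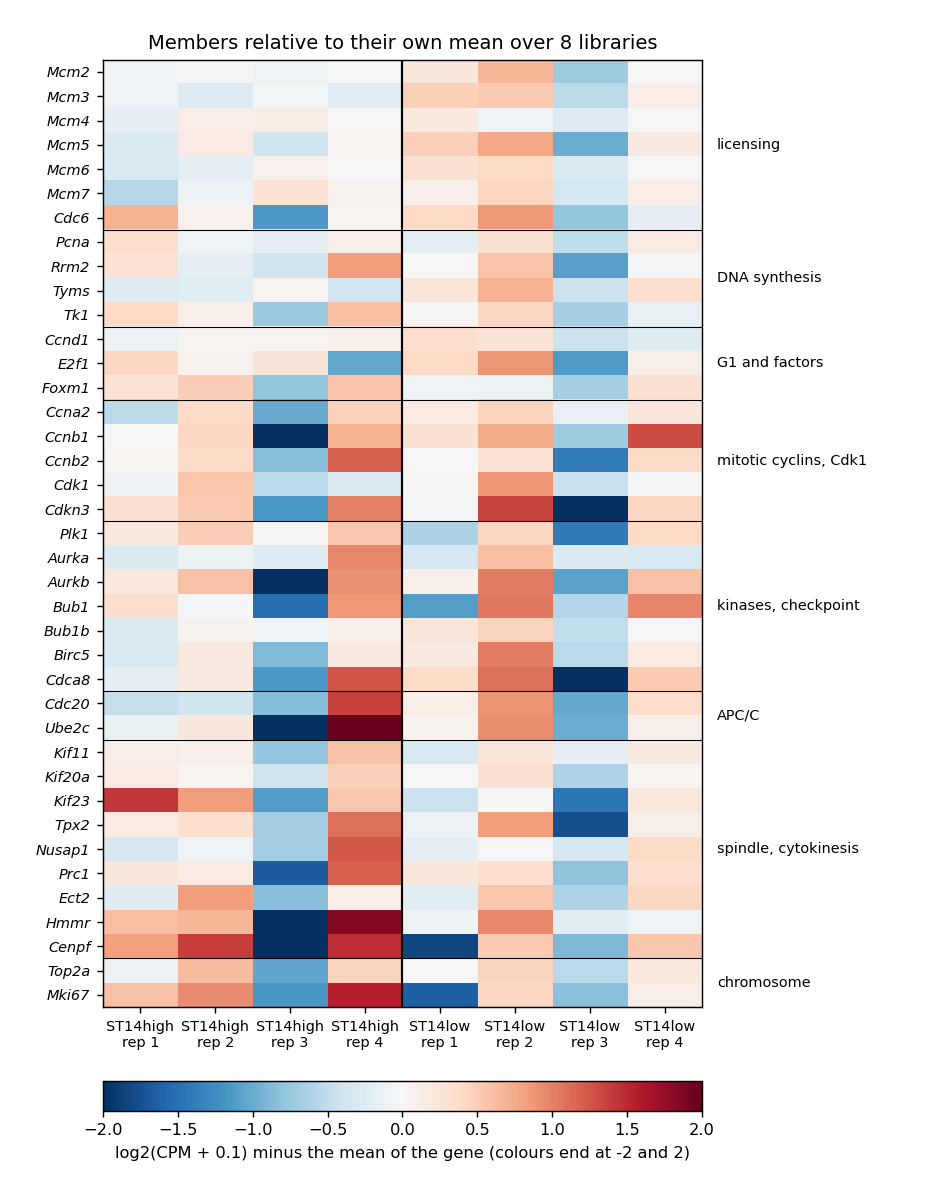
Each member in each library relative to its own mean, as log2(CPM + 0.1) minus the mean over the 8 libraries, with ST14high at the left and ST14low at the right. The mitotic genes are mostly blue in ST14high replicate 3 and red in ST14high replicate 4, while the Mcm genes differ by less than 2-fold among the ST14high libraries. Among the ST14low libraries Mcm2, Mcm3 and Mcm5 differ by more than 2-fold.

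The biological coefficient of variation, edgeR's estimate of the spread between libraries of a population beyond counting noise, had a median of 54.3% over the 25 mitotic members and 26.6% over the 11 replication members, among which it ran from 18.8% to 55.0%. Over all genes tested the median was 25.5%. The replication genes with the fewest reads had values of 55.0% for Cdc6, 46.2% for Rrm2 and 43.6% for Tk1. Tyms, with 2176 reads in all against 1111 for Rrm2, had 31.3%. The difference between the mitotic and replication members was not tested. The lowest value among the mitotic members was 29.1%, for Kif20a, whose level is uncertain, and the next was 33.4%, for Bub1b. The highest was 92.4%, for Ccnb1, which rested on 151 reads in all.

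The marker genes of other cell types also differed between these libraries, and their part in the mitotic levels was not tested. The 8 leukocyte markers summed to 34.0, 6.8, 0.472 and 29.3 CPM in ST14high, against 25.2, 51.0, 72.1 and 37.0 CPM in ST14low. The 8 endothelial markers summed to 468, 144, 35.7 and 252 CPM in ST14high, against 192, 598, 673 and 179 CPM in ST14low. The 9 measured macrophage and dendritic cell markers summed to 330.5, 264, 242 and 298 CPM in ST14high, against 407, 654, 854 and 331 CPM in ST14low. ST14high replicate 3, which had the least of the mitotic genes, also had the least of these 3 marker lists, and Ptprc (the pan-leukocyte antigen CD45) had 0 reads there, a limit of 0.0708 CPM at 3 counts. Of the 8 leukocyte markers 7 had 0 reads in at least 1 library. ST14low replicate 3 had the most of all 3 lists and the lowest mitotic sum of its population. In libraries of bulk RNA, fewer dividing cells and less mitotic RNA per dividing cell cannot be told apart.

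**Figure D4:**
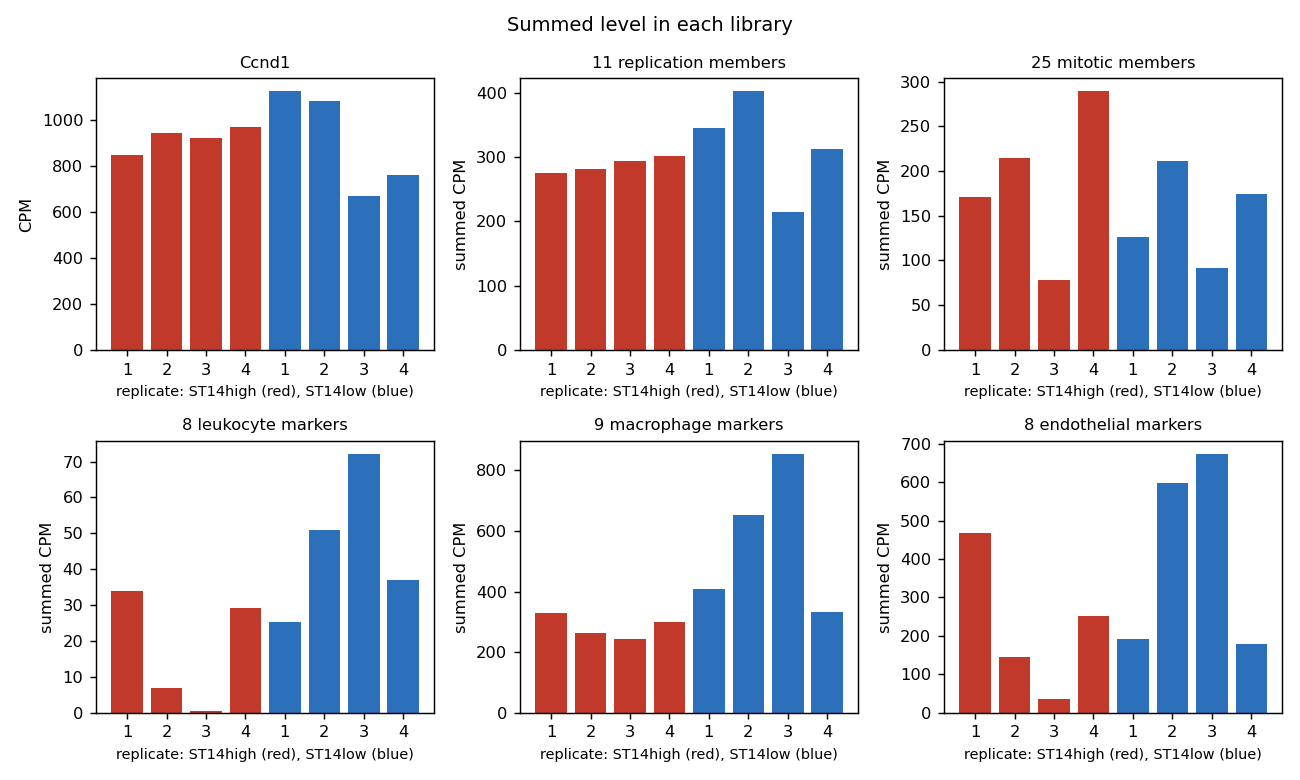
Bars give the level in each library, ST14high (red) left of ST14low (blue), of Ccnd1 (CPM) and of the replication members, the mitotic members and 3 marker lists of other cell types (summed CPM). The mitotic sum runs from 78.7 CPM in ST14high replicate 3 to 289 CPM in ST14high replicate 4, while Ccnd1 and the replication members are nearly level in ST14high. In ST14low the replication sum runs from 214 to 402 CPM and Ccnd1 from 672 to 1126 CPM.

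Mki67 (chromosome 7, 142881470 to 142908062, minus strand, mm9) had the largest fitted fold change of the 39, and it did not pass the test. It was at 36.0, 46.1, 10.6 and 70.3 CPM in ST14high, against 7.63, 31.7, 13.3 and 26.0 CPM in ST14low. ST14high replicates 1, 2 and 4 lay above all ST14low libraries and ST14high replicate 3 lay among the lowest. The log2 fold change was 1.05 (SE 0.56, 95% interval -0.21 to 2.3), with an edgeR adjusted p of 0.579 and an exact two-sided permutation p of 0.171 over the 70 arrangements of the libraries. DESeq2 gave an unadjusted p of 0.0483 and an adjusted p of 0.457. With 1 library left out the fold change ranged from 0.64 (without ST14high replicate 4) to 1.36 (without ST14low replicate 2). Top2a, the topoisomerase that untangles chromosomes before they part, was at 14.5, 24.1, 7.51 and 21.5 CPM in ST14high, against 15.6, 21.4, 10.8 and 18.2 CPM in ST14low. Mki67 over Top2a was 2.48, 1.91, 1.41 and 3.27 in ST14high, against 0.488, 1.48, 1.23 and 1.43 in ST14low. ST14low replicate 1 held the least Mki67 of the 8 libraries, and its Top2a lay inside the range of the others.

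Cenpf, a large kinetochore protein, came next. It was at 13.0, 19.3, 1.72 and 20.5 CPM in ST14high, against 2.0, 10.5, 3.86 and 10.7 CPM in ST14low. Like Mki67 it was low in ST14high replicate 3 and in ST14low replicate 1, and its log2 fold change was 1.0 (SE 0.72, edgeR adjusted p = 0.673). Kif23, a kinesin of the central spindle that is needed to complete cell division, was at 15.3, 10.2, 2.55 and 8.25 CPM in ST14high, against 4.18, 5.58, 2.01 and 6.57 CPM in ST14low. The fitted log2 fold change was 0.96 (SE 0.53, edgeR adjusted p = 0.587), and its highest value was in ST14high replicate 1, the library rich in acinar and stromal markers. Exact two-sided permutation tests gave p = 0.2 for Cenpf and 0.143 for Kif23.

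The other spindle and cytokinesis genes had smaller differences. Prc1, a microtubule bundler of the central spindle, was at 9.6, 9.19, 2.5 and 18.6 CPM in ST14high, against 9.55, 10.3, 4.63 and 10.3 CPM in ST14low. Hmmr, a spindle-associated protein, had 44, 73, 2 and 225 reads in ST14high replicates 1 to 4, or 2.78, 2.9, 0.0472 and 6.68 CPM, against 1.66, 3.59, 1.54 and 1.69 CPM in ST14low. The 2 reads of ST14high replicate 3 came from the deepest library of the series. Nusap1 (a microtubule crosslinker), Tpx2 (which activates Aurora A on the spindle), Kif11 (the motor that pushes spindle poles apart) and Ect2 (the exchange factor that starts furrowing) had log2 fold changes of 0.25, 0.32, 0.078 and -0.024, and in ST14high all 4 were lowest in replicate 3. Kif20a, a cytokinesis kinesin, was at 17.6, 16.2, 11.9 and 21.9 CPM in ST14high, against 15.8, 19.5, 10.3 and 16.3 CPM in ST14low. Its transcript overlaps 1596 bases of Cdc23 and 188 bases of Brd8, both on the opposite strand and both with more reads, and whether the counts separate strands is not given, so its level is uncertain. Overlaps on the opposite strand also join Nusap1 to Oip5 (209 bases) and Cdc20 to Elovl1 (17 bases). Of the 9 genes 8 were higher in ST14high by the fitted value (median log2 fold change 0.25), but without ST14high replicate 4 only 2 were, and the median was -0.055.

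The mitotic cyclins and their kinase lay low in ST14high replicate 3. Ccna2 (cyclin A2, used in S phase and at mitotic entry) was at 8.08, 15.1, 5.71 and 16.0 CPM in ST14high, against 13.0, 15.8, 10.5 and 13.6 CPM in ST14low. It overlaps Exosc9 on the opposite strand by 864 bases, so some of its reads may belong there. Ccnb2 (cyclin B2) was at 3.92, 5.01, 2.08 and 8.84 CPM in ST14high, against 3.79, 4.71, 1.39 and 5.0 CPM in ST14low. Ccnb1 (cyclin B1) had 9, 20, 0 and 33 reads in ST14high, against 17, 20, 2 and 50 reads in ST14low. Its 0 reads in ST14high replicate 3 allow up to 0.0708 CPM, a limit that covers counting error only. Cdk1, the kinase that cyclins A and B activate, was at 3.75 to 8.12 CPM in ST14high, against 4.01 to 10.2 CPM in ST14low. Cdkn3, a phosphatase that acts on CDKs, was at 0.142 to 0.979 CPM in ST14high and had 0 reads in ST14low replicate 3, which allows up to 0.463 CPM. The log2 fold changes of these 5 genes ran from -0.67 for Ccnb1 to 0.4 for Ccnb2, and none passed the test.

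Mitotic kinases and checkpoint genes were at low levels. Aurka, the Aurora kinase of spindle poles, was at 2.9, 3.3, 2.95 and 7.0 CPM in ST14high, against 2.81, 5.48, 2.93 and 2.88 CPM in ST14low. In each population 3 libraries were nearly equal and 1 stood above them, replicate 4 in ST14high and replicate 2 in ST14low. The chromosomal passenger genes Aurkb, Birc5 (survivin) and Cdca8 (borealin), which correct chromosome attachments, had log2 fold changes of -0.13, -0.5 and -0.1. Aurkb was at 2.02, 2.67, 0.26 and 3.35 CPM in ST14high, against 1.88, 3.64, 0.772 and 2.66 CPM in ST14low, lowest in replicate 3 of both populations. Bub1 and Bub1b, kinases of the spindle checkpoint, had log2 fold changes of -0.26 and -0.14, and Plk1, a kinase of mitotic entry and exit, 0.44. Of the 7 genes 2 lay above 0, and the smallest edgeR adjusted p was 0.761.

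The genes that drive exit from mitosis peaked in a single ST14high library. Ube2c, the ubiquitin carrier of the anaphase-promoting complex, was at 1.77, 2.31, 0.354 and 8.07 CPM in ST14high, against 2.05, 3.79, 0.926 and 2.09 CPM in ST14low. Cdc20, the activator of that complex, was at 3.47, 3.62, 2.6 and 12.5 CPM in ST14high, against 5.24, 9.02, 2.31 and 6.16 CPM in ST14low. For both, ST14high replicate 4 was highest and the remaining ST14high libraries fell within or below the ST14low range. The log2 fold change was 0.48 (SE 0.81) for Ube2c and -0.043 (SE 0.57) for Cdc20.

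The promoters of mitotic and replication genes were set side by side. RefSeq windows of 300 bases (250 before to 50 after the start, build GRCm38.p6, whereas the counts use mm9 coordinates) were found for 32 of the 39 genes, with 35 windows in all. The other 7 were Mcm4, Ccna2, Tpx2, Ccnd1, Aurkb, Kif20a and Foxm1. Motif letters were searched on both strands. The CHR, bound in resting cells by the DREAM repressor complex, was searched as TTTGAA and as TTCGAA, and the NF-Y site as CCAAT. The E2F core was searched as TTCCCGC and as TTCGCGC. Its further forms were TTGCCGC and TTGGCGC. The CCAAT box on its reverse strand and the E2F core TTGGCGC share 4 letters and can overlap. The CHR letters occurred in 20 of 23 mitotic windows (87.0%), in 2 of 11 replication windows (18.2%) and in 19.2% of all 32851 windows. CCAAT letters occurred in 91.3%, 72.7% and 37.4% of the same sets, and E2F letters in 26.1%, 63.6% and 9.57%. Both CHR and CCAAT letters were in 87.0% of mitotic windows and in 7.52% of all windows. Some genes have more than 1 window, and a match is a match of letters, not a measured binding site. The Ccnb1, Birc5 and Nusap1 windows had no CHR letters, at biological coefficients of variation of 92.4%, 51.5% and 48.8%. The Top2a window held 4 CHR and 6 CCAAT matches, at 37.8%. CHR and CCAAT letters were both in the Mcm2 window (26.6%) and in 1 Mcm7 window (24.7%). A link between motifs and spread was not tested. Shown as examples are 3 mitotic genes that varied widely between libraries and 1 licensing gene that varied less, with letters that match any of the motifs in capitals.
Ube2c promoter (chr2:164769679-164769978, plus strand): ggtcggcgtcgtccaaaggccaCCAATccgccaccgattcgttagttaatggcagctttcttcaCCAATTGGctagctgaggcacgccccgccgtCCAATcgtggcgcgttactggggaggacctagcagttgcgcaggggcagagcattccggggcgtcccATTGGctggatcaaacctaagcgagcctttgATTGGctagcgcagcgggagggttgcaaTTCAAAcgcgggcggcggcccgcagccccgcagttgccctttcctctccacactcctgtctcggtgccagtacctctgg
Hmmr promoter (chr11:40733388-40733687, minus strand): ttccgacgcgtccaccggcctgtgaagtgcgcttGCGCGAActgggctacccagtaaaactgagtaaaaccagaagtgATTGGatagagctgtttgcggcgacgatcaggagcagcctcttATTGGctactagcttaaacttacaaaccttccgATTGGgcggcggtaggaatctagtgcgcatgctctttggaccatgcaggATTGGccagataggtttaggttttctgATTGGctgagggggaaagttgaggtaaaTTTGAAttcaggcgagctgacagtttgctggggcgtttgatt
Mki67 promoter (chr7:135716330-135716629, minus strand): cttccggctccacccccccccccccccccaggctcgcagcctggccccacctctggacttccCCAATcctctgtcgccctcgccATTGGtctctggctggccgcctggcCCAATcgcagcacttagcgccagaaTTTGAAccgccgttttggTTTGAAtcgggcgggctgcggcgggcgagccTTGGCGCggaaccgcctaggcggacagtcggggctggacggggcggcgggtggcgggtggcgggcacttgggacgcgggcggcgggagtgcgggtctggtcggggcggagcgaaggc
Mcm6 promoter (chr1:128359656-128359955, minus strand): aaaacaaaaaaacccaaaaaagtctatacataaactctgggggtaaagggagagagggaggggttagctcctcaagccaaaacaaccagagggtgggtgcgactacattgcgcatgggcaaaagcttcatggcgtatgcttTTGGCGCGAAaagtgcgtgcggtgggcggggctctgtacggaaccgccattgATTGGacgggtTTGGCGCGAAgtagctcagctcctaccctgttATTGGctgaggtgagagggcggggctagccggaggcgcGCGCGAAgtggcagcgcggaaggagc
The Ube2c window holds 6 CCAAT boxes and 1 CHR, that of Hmmr 5 CCAAT boxes, 1 CHR and 1 E2F core, and that of Mki67 3 CCAAT boxes, 2 CHRs and 1 E2F core. The Mcm6 window holds 5 E2F matches and 2 CCAAT boxes and has no CHR letters. These are counts of matches, and some overlap. Each TTGGCGCGAA stretch of Mcm6 matched an E2F core on both strands, and CCAATTGG of Ube2c matched CCAAT on both strands. The number of separate sites is therefore smaller in these windows.

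**Figure D5:**
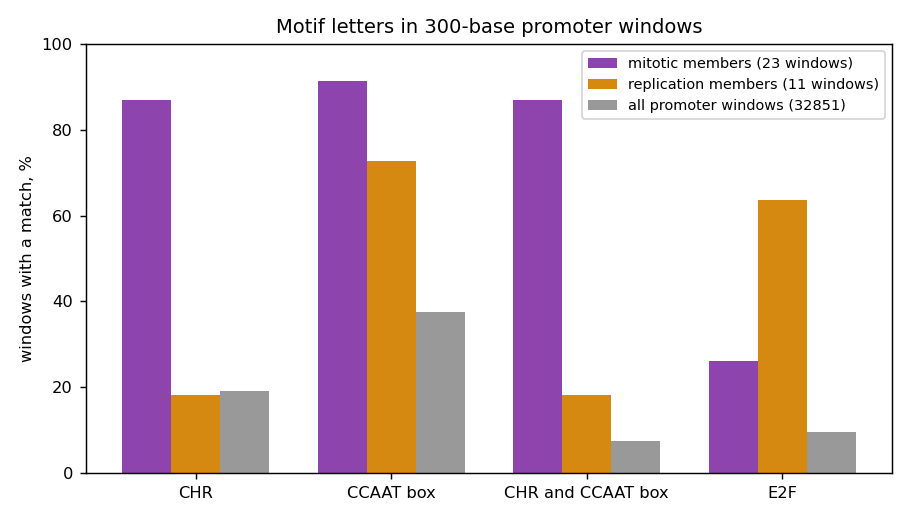
Share of 300-base promoter windows (percent) that hold the letters of each motif, for mitotic members (23 windows), replication members (11 windows) and all 32851 windows. CHR letters are in 87.0% of mitotic and 18.2% of replication windows, and E2F letters in 26.1% and 63.6%.

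Further cell cycle genes were taken from 4 lists that hold none of the 39. Of 28 genes of origin licensing and the replication fork, 0 passed edgeR's test, 0 had an unadjusted p under 0.05 there and 2 (Rpa1 and Rfc4) had one in DESeq2, where 10.8% of genes with a p did. The fitted value was lower in ST14high for 18 of them (median log2 fold change -0.088). Rpa1, the large subunit of the protein that coats single-stranded DNA, was at 72.6, 68.2, 61.3 and 69.2 CPM in ST14high, against 96.2, 104, 71.6 and 72.2 CPM in ST14low (log2 fold change -0.34, edgeR adjusted p = 0.518). Rfc4, a subunit of the loader of the Pcna clamp, was at 4.04, 6.4, 6.68 and 6.97 CPM in ST14high, against 7.76, 12.8, 7.1 and 9.97 CPM in ST14low. All 4 ST14high libraries of Rfc4 lay below all ST14low libraries, by a narrow gap, as in 2.33% of all genes tested. Its log2 fold change was -0.64 (edgeR adjusted p = 0.522). Lig1, the ligase that joins Okazaki fragments, averaged 43.6 ± 8.18 CPM in ST14high, against 41.0 ± 4.9 CPM in ST14low (SD, n = 4 each).

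Of 42 further genes of mitosis and cytokinesis 41 were tested, 0 passed edgeR's or DESeq2's test, 0 had an unadjusted p under 0.05 in either, and 18 lay above 0, with a median of -0.048. Cenpe, a kinetochore motor, was at 3.35, 4.73, 2.03 and 12.5 CPM in ST14high, against 1.15, 2.36, 2.47 and 4.16 CPM in ST14low (log2 fold change 1.16, SE 0.62, edgeR adjusted p = 0.579). Smc2, a condensin subunit, was at 16.3, 20.9, 18.1 and 31.5 CPM in ST14high, against 8.31, 13.4, 15.1 and 20.4 CPM in ST14low (edgeR adjusted p = 0.563). Both were highest in ST14high replicate 4. Over these 41 genes that library was highest of its population in 51.2% and ST14high replicate 3 lowest in 56.1%. Over all genes tested those shares were 24.9% and 24.7%. Summed over the 42 genes, the level was 329, 363, 290.4 and 422 CPM in ST14high, against 309.6, 366, 288 and 369.9 CPM in ST14low. The highest ST14high sum was 1.45-fold the lowest, where it was 3.67-fold for the 25 mitotic members. The abundant members Wee1 (the kinase that restrains Cdk1) and Lmnb1 (lamin B1) had fitted values near 0. Wee1 averaged 53.1 ± 12.7 CPM in ST14high, against 52.8 ± 4.64 CPM in ST14low, and Lmnb1 averaged 44.8 ± 5.39 CPM in ST14high, against 44.2 ± 4.27 CPM in ST14low.

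Of 18 further G1 genes, 0 passed edgeR's or DESeq2's test, 0 had an unadjusted p under 0.05 in either, and 10 lay above 0, with a median of 0.028. Ccnd2 (cyclin D2) averaged 346 ± 51.5 CPM in ST14high, against 402 ± 86.3 CPM in ST14low. Cdk4, the kinase of D-type cyclins, averaged 146 ± 35.5 CPM in ST14high, against 157 ± 45.6 CPM in ST14low. E2f4, an E2F factor of resting cells, was at 46.4, 41.5, 47.4 and 48.0 CPM in ST14high, against 43.1, 40.8, 34.7 and 37.9 CPM in ST14low, with 1 ST14high library inside the ST14low range (log2 fold change 0.23, edgeR adjusted p = 0.601).

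Among 16 genes of CDK inhibition and growth arrest, 15 were tested and 0 passed edgeR's test. An unadjusted edgeR p under 0.05 was reached by 1 (Gas1), where 6.89% of all genes tested reached it higher and 2.68% lower in ST14high. Of the 15 genes 9 lay above 0, with a median of 0.056. Gas1, a membrane protein named for its rise in growth-arrested fibroblasts, was at 154, 31.1, 44.7 and 41.5 CPM in ST14high, against 13.7, 9.84, 15.6 and 12.6 CPM in ST14low. Every ST14high library lay above every ST14low library, as in 4.09% of all genes tested. The log2 fold change reached 2.39 (SE 0.48, edgeR adjusted p = 0.192), DESeq2 called it (adjusted p = 5.6e-05), and DESeq2 kept the call without any 1 library, with log2 fold changes of 1.59 (without ST14high replicate 1) to 2.63. Dcn (decorin, a fibroblast matrix protein) was also higher in every ST14high library, at 565, 167, 149 and 189 CPM in ST14high, against 55.5, 35.9, 63.3 and 71.0 CPM in ST14low, and its part in the Gas1 level was not tested. Cdkn1b (the CDK inhibitor p27) averaged 108 ± 5.62 CPM in ST14high, against 124 ± 17.6 CPM in ST14low (log2 fold change -0.2, edgeR adjusted p = 0.63). Btg2 and Btg1, antiproliferative genes that also respond early to stress, averaged 1201 ± 714 and 133 ± 51.4 CPM in ST14high, against 1435 ± 718 and 135 ± 21.5 CPM in ST14low. Btg2 was highest in replicate 1 of ST14high and in replicate 2 of ST14low.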

How the data were processed

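RNA from 4 ST14high and 4 ST14low samples was sequenced after Illumina TruSeq library preparation, per the labels. According to the submitters' processing notes, the tools were CASAVA 1.8.2 and Bowtie 1.0.0, and the genome was mm9; their roles are unstated. The counting program, the annotation release and how strand was treated were not given in the sources used here. For each RefSeq transcript the authors deposited the raw count and the RPKM, per the file headers. RPKM served only to compare levels between genes.

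For each of 20377 symbols (26005 transcripts) the transcript with the most reads was kept. The test of differences was that of edgeR 4.0.16, run in R 4.3.3 (quasi-likelihood, TMM, filterByExpr, population as the only term, Benjamini-Hochberg over all genes, threshold 0.05). Fold changes are log2 of ST14high over ST14low, with SE computed from the F statistic. DESeq2 1.42.0 and limma 3.58.1 (voom with quality weights) were other tools. Further settings were other scalings and filters, the longest transcript, a replicate block and each library left out. Leaving out ST14high replicates 3 and 4 together, and DESeq2 without each library for Gas1, were chosen after seeing the data. Chi-square divided by its degrees of freedom was at least 18.1 in each of 28 library pairs, so no pair agreed within counting noise; this does not tell whether libraries were made from the same sample. The 39 members, the 4 further lists, the markers and the naming rule were all chosen with earlier results of these data known. The rule named the 39 members, the 2 genes of highest mean and the 2 of smallest p per further list, and 8 check genes. Limits from counts of 0 cover counting error only. Plots were made with Python 3.11.15 and matplotlib 3.10.9.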

Additional observations from a re-analysis of the deposited data

Results flagged for a closer look

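Within a population of 4 libraries, a value was singled out where its gap to the nearest other library, as a share of the whole range, exceeded Dixon's 95% limit. Of 78 sets of 4 values (39 genes in each population) 5 were singled out, where chance gives about 3.9. Aurka was far above the other libraries in ST14high replicate 4, at 7.0 CPM, and in ST14low replicate 2, at 5.48 CPM. Cdc20 was far above the others in ST14high replicate 4, at 12.5 CPM. Hmmr was far above the others in ST14low replicate 2, at 3.59 CPM. Prc1 was far below the others in ST14low replicate 3, at 4.63 CPM.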

How the results depend on the processing

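No member was called in edgeR under any scaling, filter, transcript choice, block or left-out library, nor by DESeq2 or limma's voom. Over all genes edgeR called 0, DESeq2 called 234, the fit with a replicate block called 2 and the fit without ST14high replicates 3 and 4 called 2; the cause was not tested. With 1 library left out the number of members above 0 ranged from 9 to 30. Deviations of same-numbered libraries correlated between -0.123 and 0.076, and those of other pairs between -0.215 and 0.276. Such correlations cannot settle whether the replicate numbers pair the samples. The replicate block gave 18 members above 0. Of 1014 further fold changes of named genes, 912 kept their sign and side of the threshold, 2 (Gas1 and Dcn in DESeq2, at 2.39 and 2.25) passed it and 100 changed sign, all of genes not called. With upper-quartile factors the log2 fold changes of other sign were -0.022 for Ccnd1, -0.0038 for Top2a, -0.038 for Wee1 and -0.021 for Lmnb1. With no composition factor the log2 fold changes of other sign were -0.025 for Wee1 and -0.005 for Lmnb1. In limma's voom the log2 fold changes of other sign were -0.0046 for Pcna, 0.1 for Cdk1, 0.31 for Cdkn3, -0.23 for Ube2c, -0.076 for Kif11, -0.2 for Nusap1, -0.33 for Prc1, 0.058 for Ect2, -0.63 for Hmmr, 0.04 for Ccnd2, 0.019 for Cdk4, -0.1 for Wee1 and -0.037 for Lmnb1. With the replicate block the log2 fold changes of other sign were 0.33 for Cdkn3, 0.019 for Cdca8, -0.079 for Ube2c, -0.028 for Prc1, -0.14 for Hmmr, -0.047 for Top2a and -0.02 for Wee1. Wee1 was at -0.00016 with DESeq2's size factors, -0.0014 with no low-count filter, -0.0011 in DESeq2. With 1 library left out, 24 members changed sign at least once and 15 members kept it in every setting. The ranges of log2 fold change for named genes that changed sign with 1 library left out were Mcm2 -0.37 to 0.037, Mcm4 -0.025 to 0.13, Cdc6 -0.48 to 0.13, Pcna -0.043 to 0.2, Rrm2 -0.068 to 0.48, Ccnd1 -0.11 to 0.13, E2f1 -0.49 to 0.056, Ccnb2 -0.045 to 0.63, Cdk1 -0.51 to 0.085, Cdkn3 -0.44 to 0.59, Aurka -0.21 to 0.48, Aurkb -0.47 to 0.22, Bub1 -0.65 to 0.063, Cdca8 -0.7 to 0.25, Cdc20 -0.83 to 0.25, Ube2c -0.62 to 0.85, Kif11 -0.15 to 0.27, Kif20a -0.032 to 0.24, Tpx2 -0.055 to 0.71, Nusap1 -0.36 to 0.45, Prc1 -0.31 to 0.49, Ect2 -0.39 to 0.18, Hmmr -0.17 to 0.93, Top2a -0.19 to 0.26, Cdk4 -0.23 to 0.11, Btg2 -0.74 to 0.13, Btg1 -0.33 to 0.1, Lig1 -0.019 to 0.19, Wee1 -0.11 to 0.14, Lmnb1 -0.062 to 0.073, Epcam -0.089 to 0.011, Sox9 -0.14 to 0.0068, Pecam1 -1.78 to 0.14. The shallowest library, ST14low replicate 3, held 6398307 reads, where 3 counts are 0.463 CPM, so levels under that cannot be compared there.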
